A study of Mus musculus with 2 samples.

Results

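The genes described here are those of GABA and glycine receptors and of the inhibitory synapse, in nuclei of mouse hindbrain neurons that project to the lumbar spinal cord. The list holds 25 genes: the GABA-A receptor subunits Gabra2 to Gabra6, Gabrb1, Gabrb2, Gabrg1, Gabrg3, Gabrd, Gabre and Gabrq, the glycine receptor subunits Glra1, Glra2, Glra3 and Glrb, the GABA-B receptor subunits Gabbr1 and Gabbr2, the synaptic genes Gphn, Nlgn2 and Lhfpl4, the chloride transporters Slc12a5 and Slc12a2, and the uptake transporters Slc6a11 and Slc6a9. They were taken by name, and 23 of the 25 reached 20 UMIs (unique molecular identifiers, 1 per captured RNA molecule) over both count tables, which hold 23912 genes in all. The 2 others were Gabra6, with 0 UMIs after the hot water bath and 3 in the other library, and Gabrd, with 0 and 13. Of the GABA-A receptor genes outside the list, Gabrp, Gabrr1, Gabrr2 and Gabrr3 were among 42 further genes counted below. The others were not analysed here.

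Mice of the TRAP2 strain, 8 to 12 weeks old, received AAV-retro-H2B-GFP, a virus taken up by axon terminals that labels nuclei green, in the lumbar cord. TRAP2 mice carry a Cre recombinase under control of the activity-dependent Fos gene, so that neurons active in a time window can be marked. One group was exposed to a hot water bath and the other is labelled SNI with brush, and both share the strain, the virus and the dissection, which reached from -7.3 to -5.2 mm relative to bregma. Hindbrains of a treatment were pooled before nuclei were sorted and made into 1 library (10x 3′ v3 chemistry), so there are 2 libraries and 1 per treatment.

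With 1 pooled library per treatment nothing here has a replicate, and no test was made. Nuclei of 1 library are not replicates either, and all intervals cover counting error alone (95%, exact). Levels are CPM, the UMIs of a gene summed over the nuclei of a class and scaled to a class total of 1000000. Classes were set side by side in pairs by the log2 ratio of their CPM, and a gene is called apart where the ratio reached 1.5-fold in either direction and the 2 sums together held at least 20 UMIs.

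Fast inhibition in the hindbrain works through chloride channels that open on GABA or glycine. A GABA-A receptor is a ring of subunits in which alpha and beta subunits form the GABA site and a gamma subunit helps to hold the receptor at the synapse. A glycine receptor joins alpha subunits to the beta subunit, which binds the scaffold protein gephyrin. GABA-B receptors are pairs of G-protein-coupled subunits that act more slowly. How much chloride a neuron holds, and hence what these channels do, depends on transporters that carry chloride out of the cell (Slc12a5) or into it (Slc12a2).

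Nuclei were put in classes by transmitter genes, none of which is in the list. Nuclei with at least 10 UMIs of Tph2, the enzyme that starts serotonin synthesis in neurons, were called Tph2 nuclei. Others were glutamatergic where at least 75% of at least 5 transmitter UMIs came from Slc17a6, the vesicular glutamate transporter VGLUT2, and inhibitory where at least 75% came from Gad1, Gad2 (GABA synthesis) and Slc6a5 (glycine transporter of glycinergic neurons). The hot water bath library held 187 glutamatergic (44.3% of its neuronal nuclei), 57 inhibitory (13.5%) and 26 Tph2 nuclei (6.16%). The SNI with brush library held 94 glutamatergic (34.7%), 103 inhibitory (38.0%) and 3 Tph2 nuclei. The remaining 152 and 71 nuclei had mixed or few transmitter UMIs. In the Tph2 nuclei of the hot water bath library Tph2 stood at 1663 CPM, a level that follows from the rule of the class. Of the other serotonergic markers, Slc6a4 stood at 312 CPM, with a UMI in 17 of 26 nuclei, and Fev at 5.48 CPM. Gad2 was at 317 CPM, against 342 CPM in inhibitory nuclei.

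The libraries differed as a whole. They held 16344606 and 11298755 UMIs (hot water bath first, here and below) in 425 and 288 nuclei with no barcode shared, of which 422 and 286 stayed after doublet removal. Mitochondrial UMIs made up 0.148% and 0.514%, and Gm42418, a transcript that overlaps ribosomal RNA, 0.235% and 0.958%. The SNI with brush library also held 15 nuclei with at least 0.5% of UMIs from liver genes, which were kept out of the neuronal sums and serve below as nuclei that should lack receptor RNA. Summed over all neuronal nuclei, the 10 astrocyte markers stood at 59.8 and 157 CPM, the 8 oligodendrocyte markers at 94.3 and 222 CPM, the 5 microglia markers at 120 and 304 CPM, the 6 cerebellar granule cell markers at 6.25 and 27.9 CPM, the 4 ependymal and choroid plexus markers at 11.8 and 244 CPM (mostly Ttr) and the 7 liver markers at 10.1 and 81.2 CPM. Classes were compared within a library. The mitochondrial share also differed between classes, at 0.106% in glutamatergic and 0.364% in inhibitory nuclei of the hot water bath library and at 0.381% and 0.673% in the other, and its part in the results was not tested beyond the alternative of at most 0.5%.

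Among listed genes with at least 100 UMIs over both libraries, which leaves out Gabre, Gphn led per kilobase of annotated exon in all neuronal nuclei of the hot water bath library with 253 CPM per kb, followed by Gabrb1 with 71.3 and Glra1 with 57.9, and Gabra4 was last with 1.75. In the SNI with brush library the order began with Gphn (309), Glra1 (88.4) and Glrb (45.3) and ended with Gabrq (1.02). By CPM alone, Gabrb1 (987) came before Gphn (947) in the hot water bath library. In the SNI with brush library Gphn (1159) led by CPM, followed by Gabrg3 (516). Counts of 3′ UMIs hold about 1 UMI per captured molecule whatever its length, so an order between genes depends on the scale chosen and is a description. Gphn encodes gephyrin, the scaffold of inhibitory synapses, which is also an enzyme of molybdenum cofactor synthesis in all tissues. It was found in every neuronal nucleus of the 3 classes in both libraries, and stood at 2767 CPM in the liver-gene nuclei. Nuclear RNA is rich in unspliced transcripts, and per kilobase of whole gene span, introns included, the order was another: Gabbr1 (3.26 CPM per kb), Slc12a5 (2.82) and Glrb (2.61) led in the hot water bath library.

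**Figure D1:**
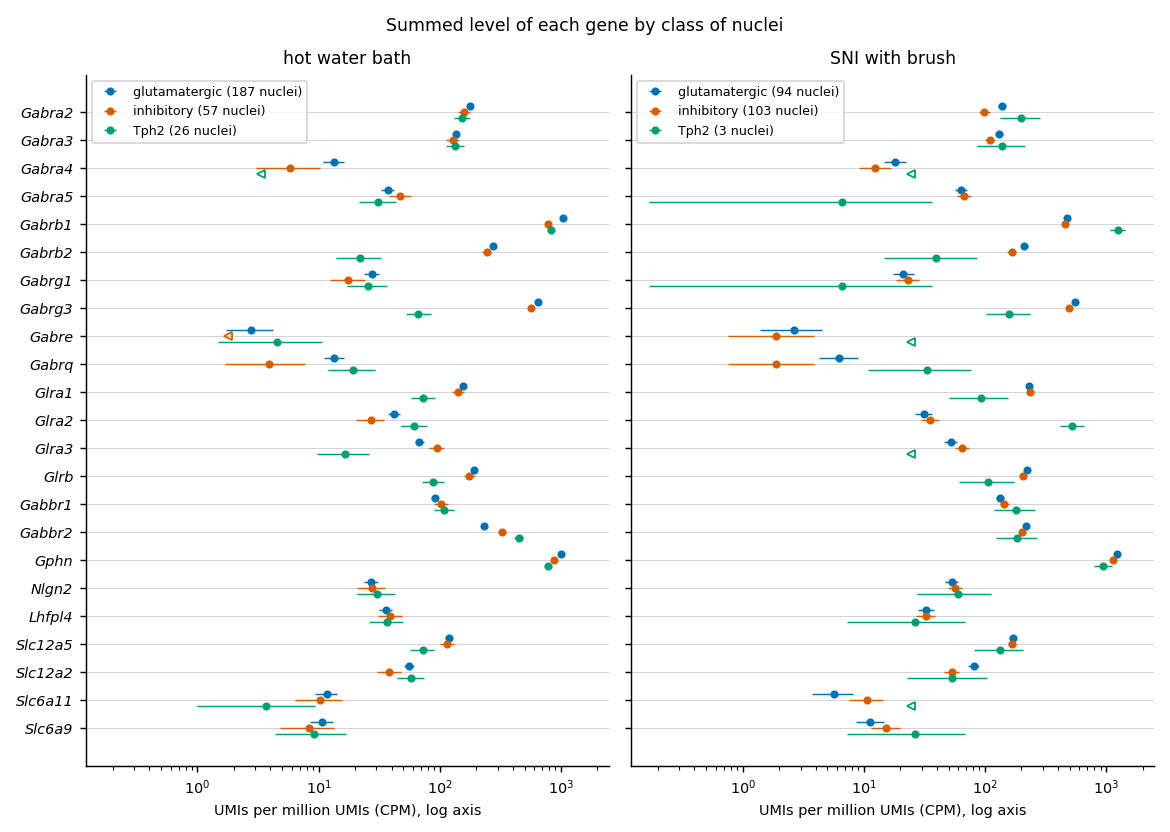
Summed level as CPM (log axis) of the 23 genes in glutamatergic, inhibitory and Tph2 nuclei, 1 panel per library; points are sums over nuclei, lines are 95% Poisson intervals that cover counting error alone, and open triangles mark the upper limit of a sum of 0. Blue and orange points lie close together for most genes, while in the hot water bath panel the green points of Gabrb2 (21.9 CPM) and Gabrg3 (66.6 CPM) lie far to the left of the others.

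Between glutamatergic and inhibitory nuclei the share of the list that was apart in either direction was near that of all genes in both libraries. In the hot water bath library, 5 of 23 genes were apart between inhibitory and glutamatergic nuclei, where 20.8% of all genes were. All 5 were lower in inhibitory nuclei and 0 higher, while 9.71% of all genes were lower and 11.1% higher. Without the 4 inhibitory nuclei that held at least 10 UMIs of Slc18a2, the vesicular transporter of monoamines, 3 were apart. The median log2 ratio of the list was -0.17, against 0.03 over all genes. In the SNI with brush library, 3 of 23 were apart (15.9% of all genes), 1 higher and 2 lower, with a median of -0.04 against 0.09. With size factors (median of ratios) in place of total UMIs, 7.74% of all genes were higher and 7.0% lower there, in place of 10.2% and 5.71%. Of the list, 1 was then higher and 3 lower.

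The alpha subunit genes Gabra2 and Gabra3, which form part of the GABA site, were at like levels in both classes. Gabra2 stood at 179 CPM in glutamatergic and 159 CPM in inhibitory nuclei of the hot water bath library, and at 139 and 98.9 CPM in the SNI with brush library. For Gabra3 the values were 136 and 128 CPM, and 130 and 110 CPM. Neither was apart in either library. Gabra4, a subunit of receptors that lie largely outside synapses, was low and uneven: it stood at 13.3 CPM in glutamatergic and 5.85 CPM in inhibitory nuclei of the hot water bath library (log2 ratio -1.13, interval -2.18 to -0.32), from 106 and 12 UMIs, and the glutamatergic UMIs lay in 43 of 187 nuclei. It was at 18.2 and 12.5 CPM in the SNI with brush library, with a log2 ratio of -0.54.

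The beta subunit genes were high in both classes. Gabrb1 stood at 1036 CPM (interval 1014 to 1058) in glutamatergic and 782 CPM (745 to 822) in inhibitory nuclei of the hot water bath library, a log2 ratio of -0.40, and at 471 and 459 CPM in the other. Gabrb2 stood at 277 and 243 CPM, and at 212 and 166 CPM. The gamma subunit gene Gabrg3 stood at 651 and 565 CPM, and at 548 and 490 CPM. None of these 3 reached 1.5-fold between the classes in either library. Gabrg1, another gamma subunit, was at 27.3 and 17.6 CPM in the hot water bath library (log2 ratio -0.62, interval -1.19 to -0.12), a call lost in 5 alternatives (-0.57 to -0.13), and at 21.2 and 23.0 CPM in the other.

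The one listed gene called lower in inhibitory nuclei of both libraries was Gabrq, the theta subunit, known from monoaminergic and hypothalamic neurons. It stood at 13.4 CPM in glutamatergic nuclei (a UMI in 59 of 187) and 3.90 CPM in inhibitory nuclei (7 of 57) of the hot water bath library, which is 3.25-fold lower (log2 ratio -1.70, interval -3.03 to -0.75). In the SNI with brush library it stood at 6.27 and 1.90 CPM, 3.13-fold lower (-1.65, interval -3.15 to -0.51). The inhibitory values rest on 8 and 7 UMIs. Gabre, the epsilon subunit and the neighbour of Gabra3 and Gabrq on the X chromosome, had 22 UMIs in glutamatergic and 0 in inhibitory nuclei of the hot water bath library. With the 0 set to 3 counts this is 1.89-fold lower, while the exact interval of the log2 ratio reached up to -0.49. In the other library Gabre had 13 and 7 UMIs.

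Among glycine receptor genes, Glra1, the main adult alpha subunit of brainstem and cord, was at 156 CPM in glutamatergic and 141 CPM in inhibitory nuclei of the hot water bath library and at 231 and 237 CPM in the other. Glrb, the beta subunit, was at 193 and 175 CPM and at 222 and 206 CPM. Both genes were thus within 1.5-fold between the classes in both libraries. Glra2 was at 41.8 and 26.8 CPM in the hot water bath library (log2 ratio -0.63, -0.52 and -0.37 where 3 or 10 transmitter UMIs defined the classes and -0.52 without the Slc18a2 nuclei) and at 31.3 and 35.2 CPM in the other. Glra3 was higher in inhibitory nuclei without reaching 1.5-fold: 94.1 against 67.6 CPM (log2 ratio 0.48, interval 0.23 to 0.72) and 64.8 against 52.0 CPM (0.32).

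The GABA-B subunit that couples to G proteins, Gabbr2, stood at 231 CPM in glutamatergic and 324 CPM in inhibitory nuclei of the hot water bath library (log2 ratio 0.49), and at 219 and 203 CPM in the other (-0.11). Gabbr1, which binds GABA, was at 90.7 and 102 CPM and at 133 and 144 CPM. Neither was apart. Of the synaptic genes, Gphn (1008 and 872 CPM in the hot water bath library), Nlgn2, the adhesion protein of inhibitory synapses (27.2 and 27.3 CPM), and Lhfpl4, which ties GABA-A receptors to it (35.7 and 39.0 CPM), were within 1.5-fold as well.

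The chloride exporter Slc12a5 was level between the classes, at 118 and 114 CPM in the hot water bath and 169 and 167 CPM in the SNI with brush library. Slc12a2, which loads chloride, stood at 38.0 CPM in inhibitory against 55.5 CPM in glutamatergic nuclei (log2 ratio -0.54) and at 53.1 against 80.5 CPM (-0.60, interval -0.85 to -0.35). The second of these was called by a small margin, and the call was lost in 6 alternatives (-0.58 to -0.34). Slc12a5 accordingly made up 68.0% of the summed UMIs of the pair in glutamatergic and 75% in inhibitory nuclei of the hot water bath library, and 67.7% and 75.9% in the other.

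The uptake transporters, which are mostly glial, were low. Slc6a11, the GABA transporter GAT-3, was at 11.7 and 10.2 CPM in the hot water bath library and at 5.66 and 10.6 CPM in the SNI with brush library, where inhibitory nuclei were higher (log2 ratio 0.89, interval 0.16 to 1.66). That ratio was 0.47 among nuclei with at most 0.5% mitochondrial UMIs. Beside it, the 10 astrocyte markers, all detected in both classes, summed to 136 CPM in glutamatergic and 179 CPM in inhibitory nuclei, and their part in the result was not tested. Slc6a9, the glycine transporter GlyT1, was at 10.7 and 8.29 CPM and at 11.3 and 15.2 CPM.

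**Figure D2:**
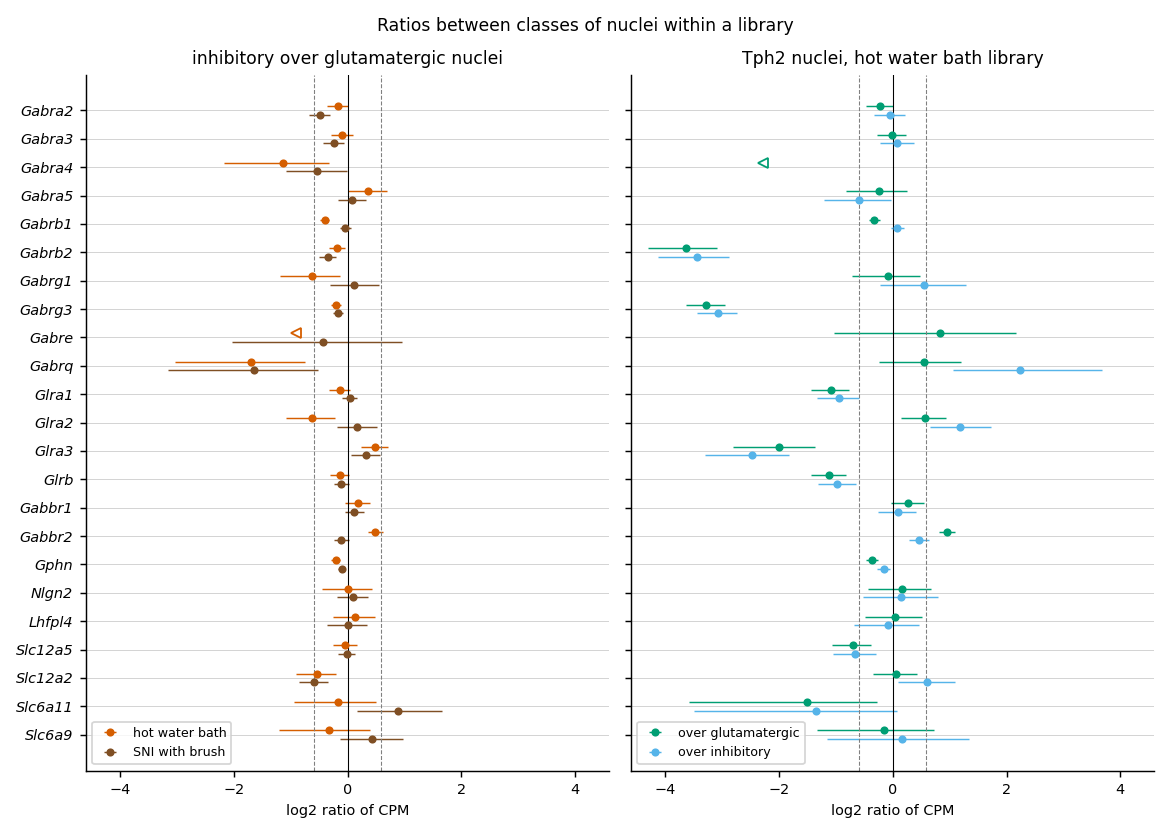
Log2 ratio of CPM between classes of nuclei of the same library for the 23 genes, inhibitory over glutamatergic nuclei in both libraries (left) and Tph2 nuclei over the other 2 classes in the hot water bath library (right); lines are exact 95% intervals for counting error, dashed lines mark 1.5-fold and open triangles are bounds where a sum is 0. On the left most points lie between the dashed lines, and on the right Gabrb2 (-3.63 and -3.45), Gabrg3 (-3.28 and -3.08) and Glra3 (-2.00 and -2.48) lie far below them.

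Tph2 nuclei differed from both other classes by large ratios in a few receptor genes. Against glutamatergic nuclei of the hot water bath library, 10 of 23 genes were apart, 2 higher and 8 lower, where 38% of all genes were apart, 13.8% higher and 24.2% lower. Against inhibitory nuclei, 11 of 21 were apart, 3 higher and 8 lower (34.4% of all genes, 10.6% and 23.8%). Against glutamatergic nuclei the share of the list that was apart (10 of 23) is thus near that of all genes, and the genes are described below by the size of their ratios. With size factors, 4 of 23 were higher and 8 lower against glutamatergic nuclei (16.6% and 20.7% of all genes), and against inhibitory nuclei 5 of 21 were higher and 6 lower (14.3% and 18.7% of all genes).

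Gabrb2, a beta subunit common in GABA-A receptors across the brain (chr11:42419757-42629028, plus strand, mm10), was nearly missing from Tph2 nuclei. It had 24 UMIs in 8 of 26 nuclei, 21.9 CPM (interval 14.0 to 32.6), against 277 CPM (266 to 289) in glutamatergic and 243 CPM (223 to 266) in inhibitory nuclei of the same library. The median nucleus held 0 UMIs, against 10 and 7. These levels are 12.4-fold lower than in glutamatergic (log2 ratio -3.63, interval -4.31 to -3.08) and 10.9-fold lower than in inhibitory nuclei (-3.45, interval -4.13 to -2.88). Over the alternatives the first ratio ran from -4.19 to -3.19.

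Gabrg3, a gamma subunit gene that spans 671 kb (chr7:56716465-57387188, minus strand), was low as well. It had 73 UMIs in 5 of 26 Tph2 nuclei, 66.6 CPM, against 651 and 565 CPM, which is 9.71-fold lower than in glutamatergic (log2 ratio -3.28, interval -3.64 to -2.96) and 8.43-fold lower than in inhibitory nuclei. Of the 73 UMIs, 65 (89.0%) came from 1 nucleus. Without the nucleus with the most UMIs in each class the ratios were -6.32 and -6.09, and with called doublets kept -2.38 and -2.18.

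Some nuclei held neither gene. In the hot water bath library, no UMI of either was found in 16 of 26 Tph2 nuclei (61.5%) and in 5 of 57 inhibitory nuclei (8.77%). The same held for 0 of 187 glutamatergic nuclei of that library, which allows a share of up to 1.60%. The median Tph2 nucleus held 40064 UMIs, against 40469 in glutamatergic and 32375 in inhibitory nuclei. With every nucleus thinned to 5000 UMIs, which left none out, Gabrb2 was found in 3.85% of Tph2, 66.3% of glutamatergic and 50.9% of inhibitory nuclei (30.8%, 96.8% and 89.5% before thinning). Gabrg3 was found in 3.85%, 65.8% and 71.9% (19.2%, 80.2% and 82.5%). In the liver-gene nuclei of the other library, whose median depth was 18631 UMIs, thinned shares were 0 of 15 for Gabrb2, which allows a share of up to 20%, and 1 of 15 for Gabrg3, so these nuclei set no limit near the thinned share of Tph2 nuclei.

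The 5 inhibitory nuclei with neither gene were looked at after their values had been seen. Of these, 4 held 3 to 6 Tph2 UMIs, too few for the Tph2 class, together with 14 to 36 UMIs of Slc18a2, and none had a UMI of the serotonin transporter gene Slc6a4. Of the 52 other inhibitory nuclei, 1 had at least 3 Tph2 UMIs and 0 had at least 10 Slc18a2 UMIs, the highest being 6. All 26 Tph2 nuclei had at least 10 Slc18a2 UMIs (14 to 67), and 17 had a Slc6a4 UMI.

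**Figure D3:**
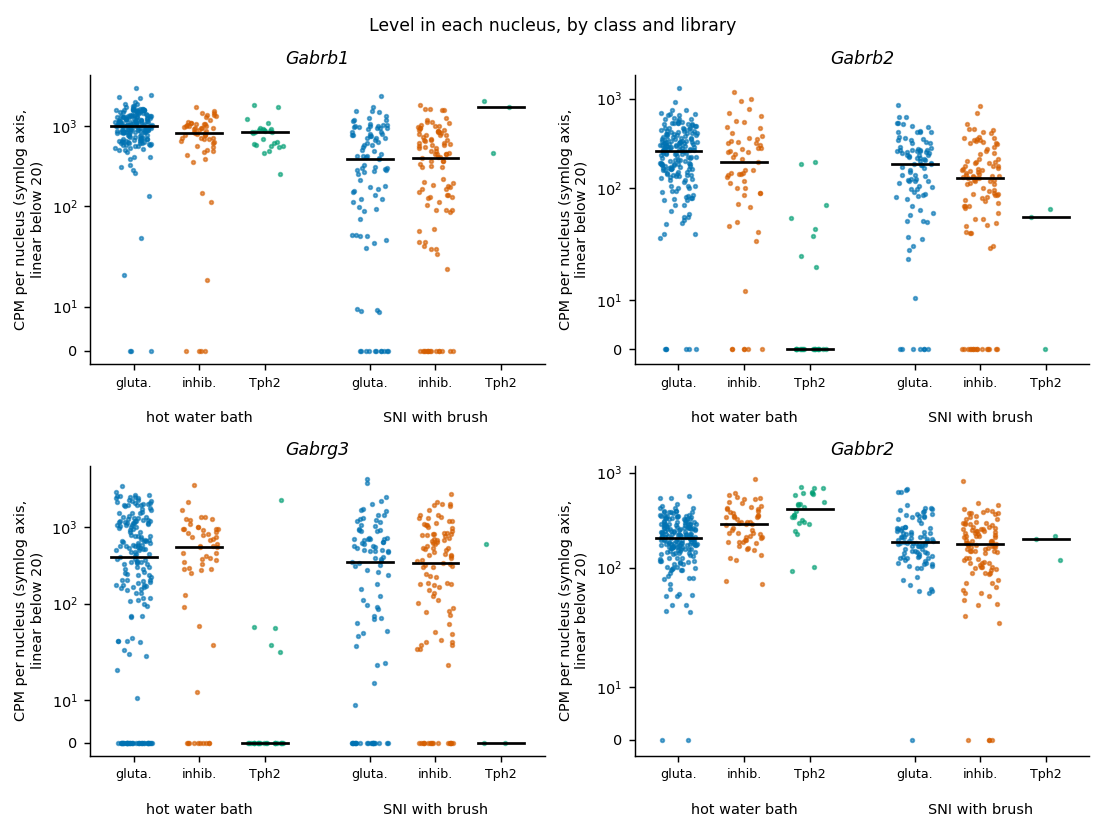
Level of Gabrb1, Gabrb2, Gabrg3 and Gabbr2 in each nucleus as CPM (symlog axis, linear below 20) by class and library; a point is a nucleus and a bar the median. Most Tph2 nuclei of the hot water bath library lie at 0 for Gabrb2 (18 of 26) and Gabrg3 (21 of 26), and none lies at 0 for Gabrb1 or Gabbr2.

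The other beta gene was kept. Gabrb1 (chr5:71658113-72149037, plus strand) had 906 UMIs in Tph2 nuclei, a UMI in all 26, and 827 CPM (interval 774 to 883), against 1036 and 782 CPM. Its log2 ratios were -0.32 and 0.08. Gabrb2 therefore made up 2.6% of the summed UMIs of the beta pair in Tph2 nuclei, against 21.1% in glutamatergic and 23.7% in inhibitory nuclei. By single nuclei the median share was 0% (17 of 25 Tph2 nuclei with at least 10 UMIs of the pair were at 0), against 19.2% and 18.7%. These shares compare summed UMIs of genes of unequal length, and serve to compare classes, not genes.

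Gabra2 (152 CPM, a UMI in 26 of 26) and Gabra3 (134 CPM) were at levels in Tph2 nuclei within 1.5-fold of the other classes, and Gabra5, a largely extrasynaptic subunit, was at 31.0 CPM, against 37.1 and 47.3. It was called lower than in inhibitory nuclei by a small margin (-0.59, interval -1.22 to -0.03), and 7 of 13 alternatives lost the call (-0.58 to -0.41). Gabra4 had 0 UMIs in the 26 nuclei, with an exact upper limit of 3.37 CPM. With the 0 set to 3 counts (2.74 CPM), Gabra4 was 4.85-fold lower than in glutamatergic nuclei. Gabra4 and Gabrb1 start head to head on chromosome 5 and their annotated ends overlap on opposite strands (Gabra4 chr5:71569749-71658308, minus strand), whereas Gabrg1 and Gabra2 lie apart on the same side of Gabra4. The sources used here do not say whether reads were counted by strand. Gabrq stood at 19.2 CPM in Tph2 nuclei (a UMI in 13 of 26), 4.73-fold higher than in inhibitory nuclei (log2 ratio 2.24, interval 1.06 to 3.68, from 21 and 8 UMIs; 1.60 where a Tph2 nucleus needed 30 Tph2 UMIs), and within 1.5-fold of glutamatergic nuclei (13.4 CPM). Gabre was at 4.56 CPM from 5 UMIs, and its call against glutamatergic nuclei (0.83) was lost without its top nucleus (0.44) and as a mean over nuclei (0.55).

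Glycine receptor genes were lower in Tph2 nuclei, with Glra2 as the exception. Glra3 (chr8:55940460-56130070, plus strand) had 18 UMIs in 7 of 26 nuclei, 16.4 CPM (interval 9.74 to 26.0), 4.01-fold lower than in glutamatergic (log2 ratio -2.00) and 5.59-fold lower than in inhibitory nuclei (-2.48). Glra1 was at 73.0 CPM (57.9 to 90.9), 2.12-fold and 1.93-fold lower, and Glrb at 88.5 CPM (71.8 to 108), 2.17-fold and 1.97-fold lower. Both were detected in nearly all Tph2 nuclei (24 and 26 of 26). Glra2 was at 61.1 CPM (47.4 to 77.7), 2.28-fold higher than in inhibitory nuclei (1.19), but 1 nucleus held 44.8% of its 67 UMIs, and without the top nucleus of each class the log2 ratio was 0.58. Of the UMIs of the 3 alpha genes, Glra2 made up 40.6% in Tph2, 15.7% in glutamatergic and 10.2% in inhibitory nuclei.

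Gabbr2 (chr4:46662305-46991873, minus strand) had the highest level in Tph2 nuclei relative to glutamatergic nuclei among the listed genes called apart. It stood at 446 CPM (interval 408 to 488), with a UMI in 26 of 26 nuclei and a median of 17 UMIs, against 231 CPM (220 to 241) and a median of 9 in glutamatergic nuclei, which is 1.94-fold higher (log2 ratio 0.95, interval 0.81 to 1.10). Inhibitory nuclei lay between, at 324 CPM (300 to 349), and the ratio to them was 0.46, which is not called, or 0.60 with size factors. Those without a Slc6a5 UMI held Gabbr2 at 375 CPM (342 to 410), and those with at least 2 at 246 CPM (212 to 284). Gabbr1, its partner, was at 109 CPM, against 90.7 and 102. In the liver-gene nuclei of the other library Gabbr2 was found in 11 of 15 nuclei at 122 CPM.

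Gphn (781 CPM), Nlgn2 (30.1) and Lhfpl4 (36.5) in Tph2 nuclei were within 1.5-fold of both other classes. Slc12a5 was at 72.1 CPM (57.1 to 89.9), 1.63-fold lower than in glutamatergic (log2 ratio -0.70) and 1.58-fold lower than in inhibitory nuclei (-0.66, a call lost with size factors at -0.52 and at most 0.5% mitochondrial UMIs at -0.56). Slc12a2 was at 57.5 CPM, as in glutamatergic nuclei, and its call against inhibitory nuclei (0.60) was lost in 5 alternatives (0.38 to 0.58). Slc12a5 made up 55.6% of the pair's UMIs. Slc6a11 was at 3.65 CPM from 4 UMIs, and beside it the astrocyte markers summed to 38.3 CPM with Aqp4, Aldh1l1, Agt, Fgfr3 and Sox9 at 0, against 56.8 CPM in glutamatergic and 84.9 CPM in inhibitory nuclei, and their part in the result was not tested.

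The windows upstream of the annotated starts are shown for the genes with the largest ratios each way between Tph2 and inhibitory nuclei whose window overlaps no annotated exon, 2 lower (Gabrb2, Glra3) and 2 higher (Gabrq, Glra2). Each is the 250 bases before the start in RefSeq (GRCm38.p6), and capitals mark matches on either strand to the letters GGGCGG, known as the GC box, or to the box named TATA after its first letters (searched as TATAAA). The windows are chr11:42420190-42420439 (plus strand) for Gabrb2, chr8:55940168-55940417 (plus) for Glra3, chrX:72824928-72825177 (plus) for Gabrq and chrX:165327394-165327643 (minus) for Glra2. GENCODE places a further start of Gabrb2 upstream of the one in RefSeq, so that its window lies between annotated exons of the gene.
Gabrb2: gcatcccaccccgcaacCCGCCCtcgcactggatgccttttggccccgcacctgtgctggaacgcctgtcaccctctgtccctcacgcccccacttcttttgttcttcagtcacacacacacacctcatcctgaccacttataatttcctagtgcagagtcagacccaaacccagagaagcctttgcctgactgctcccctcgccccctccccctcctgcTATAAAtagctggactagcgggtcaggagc
Glra3: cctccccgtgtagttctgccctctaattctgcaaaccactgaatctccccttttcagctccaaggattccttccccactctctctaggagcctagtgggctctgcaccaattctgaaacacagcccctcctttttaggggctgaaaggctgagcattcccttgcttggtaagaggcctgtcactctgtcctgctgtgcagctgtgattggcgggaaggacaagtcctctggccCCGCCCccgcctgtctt
Gabrq: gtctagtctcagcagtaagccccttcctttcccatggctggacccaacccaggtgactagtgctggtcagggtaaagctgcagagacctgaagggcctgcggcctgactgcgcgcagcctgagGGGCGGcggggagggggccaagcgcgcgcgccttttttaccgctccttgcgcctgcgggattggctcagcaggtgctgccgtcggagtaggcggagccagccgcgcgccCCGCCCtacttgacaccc
Glra2: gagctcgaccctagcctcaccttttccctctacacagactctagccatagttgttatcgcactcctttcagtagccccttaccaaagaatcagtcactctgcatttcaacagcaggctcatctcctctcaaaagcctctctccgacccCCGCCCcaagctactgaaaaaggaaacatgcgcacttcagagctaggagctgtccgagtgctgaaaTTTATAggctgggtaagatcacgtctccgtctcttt

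All 4 windows hold a GC box, and Gabrb2 and Glra2, which differ in direction, both hold a TATA box near the start, 30 and 36 bases upstream. RefSeq windows were found for 22 of the 25 listed genes, and 16 of them hold a GC box, against 33.0% of 27025 windows of this length over all genes. The median GC content of the listed windows was 61.8%, against 52% over all genes, and its part in the GC box count was not tested. A TATA box was in 3 (13.0% of all) and the AP-1 site TGANTCA in 1 (6.85%). The CRE TGACGTCA (1.60% of all), the ETS site CCGGAAGT (2.92%) and the E-box CACGTG (6.04%) were in none. The letters of these windows are a description of sequence and no measure of binding.

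Among 42 further genes of inhibitory synapses, GABA handling and chloride control, 32 could be compared between Tph2 and glutamatergic nuclei, of which 3 were higher and 11 lower, where 13.8% and 24.2% of all genes were. Between Tph2 and inhibitory nuclei 29 could be compared, of which 1 was higher and 12 lower (10.6% and 23.8% of all genes). Kctd8 and Kctd16 encode auxiliary subunits of GABA-B receptors. Kctd8 was at 34.7 CPM, against 333 in glutamatergic and 300 in inhibitory nuclei (log2 ratios -3.25 and -3.10), and Kctd16 at 22.8 CPM, against 131 and 332 (-2.49 and -3.84). Kctd12, of the same family, had too few UMIs to be compared. Gabbr2 itself was higher, as given above. Of the inhibitory synapse factors, Insyn2a had 0 UMIs in Tph2 and 181 in glutamatergic nuclei, and Insyn2b stood at 3.65 against 43.4 CPM (-3.40). Higher than in glutamatergic nuclei were Plcl1, a protein that binds GABA-A beta subunits (600 against 387 CPM, 0.63), and Abat, the enzyme that breaks down GABA (178 against 118 CPM, 0.59).

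The SNI with brush library held 3 Tph2 nuclei, so its values are described only. Against glutamatergic nuclei 11 of 20 genes were apart, 4 higher and 7 lower (4 and 9 with size factors), where 50.7% of all genes were, 34% higher and 16.7% lower (23.1% and 24.7% with size factors). Gabrb2 had 2, 4 and 0 UMIs in the 3 nuclei (39.7 CPM, against 212 in glutamatergic nuclei), Gabrg3 had 0, 0 and 24 (159 against 548 CPM), and Glra3 had 0 in all 3. Each of the 3 thus held a UMI of Gabrb2 or Gabrg3. Neither gene was found in 2 of 94 glutamatergic (2.13%) and 1 of 103 inhibitory nuclei (0.971%) of this library. Gabrb1 was at 1250 CPM, against 471, and Glra2 at 522 CPM against 31.3, with 0, 62 and 17 UMIs. Gabbr2 was at 185 CPM, against 219 in glutamatergic nuclei, so the excess in Tph2 nuclei of the other library was not seen in these 3.

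**Figure D4:**
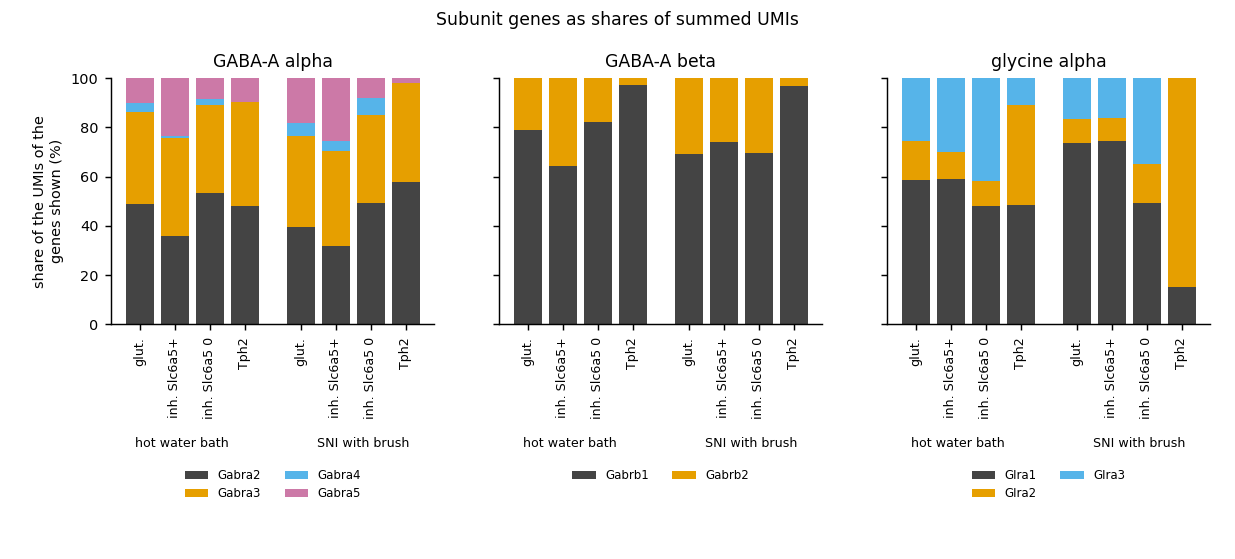
Share of summed UMIs (%) taken by each gene among the listed GABA-A alpha genes, the beta pair and the glycine receptor alpha genes, in glutamatergic nuclei, inhibitory nuclei with and without Slc6a5 UMIs, and Tph2 nuclei of each library (3 Tph2 nuclei in SNI with brush). Gabrb2 is a thin band in Tph2 nuclei of both libraries (2.6% and 3.1%), and Gabra5 is broader in inhibitory nuclei with Slc6a5 than in those without (23.4% against 8.6%, and 25.6% against 8.2%).

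Inhibitory nuclei were split by Slc6a5, which marks neurons that release glycine, into those with at least 2 UMIs and those with 0. The SNI with brush library held 80 and 17 such nuclei and the hot water bath library 20 and 36. Of 21 genes compared in the first, 11 were apart, 2 higher and 9 lower in nuclei with Slc6a5, where 28.7% of all genes were, 12% higher and 16.8% lower. Without the top nucleus of each class 5 were apart, 2 higher and 3 lower. In the hot water bath library 9 of 19 were apart, 4 higher and 5 lower (31.2% of all genes, 18.6% and 12.6%).

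The groups also differed in serotonergic markers. The 5 markers summed to 5.32 CPM in hot water bath nuclei with Slc6a5, where Fev, Slc6a4 and Ddc were at 0, and to 189 CPM in those without, where Slc6a4 was at 0. For the SNI with brush library these sums were 19.7 CPM (Fev and Slc6a4 at 0) and 70.0 CPM (Fev at 0). The 4 inhibitory nuclei with at least 10 Slc18a2 UMIs were all among the 36 without Slc6a5, and without them 7 genes were apart in the hot water bath library, in place of 9. Gabra5 then stood at a log2 ratio of 1.34, Glra1 at 0.96 and Gabrb1 at -0.88, in place of the values below.

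The alpha subunit gene Gabra5 (chr7:57407672-57510059, minus strand) and Glra1 (chr11:55514238-55608198, minus strand) were higher in nuclei with Slc6a5 in both libraries. Gabra5 stood at 75.1 CPM (232 UMIs in 53 of 80 nuclei) against 24.8 CPM (11 UMIs in 9 of 17) in the SNI with brush library, 2.90-fold higher (log2 ratio 1.53, interval 0.73 to 2.62). In the hot water bath library it stood at 79.8 CPM (60 UMIs in 13 of 20 nuclei) against 29.2 CPM (37 UMIs in 18 of 36), 2.72-fold higher (1.44, interval 0.84 to 2.08, and 1.04 without the top nucleus of each group). The highest nucleus held 15 and 23 UMIs in the nuclei with Slc6a5 and 3 and 5 in those without, and in every group some nuclei had no Gabra5 UMI, so the groups overlapped.

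Glra1 stood at 258 against 131 CPM in the SNI with brush library (log2 ratio 0.97, interval 0.60 to 1.39) and at 204 against 100.2 CPM in the hot water bath library (1.02, interval 0.67 to 1.37). It took 74.5% of glycine receptor alpha UMIs in nuclei with Slc6a5 and 49.2% in those without, and 59.1% and 47.9% in the hot water bath library. Glrb, its partner, was apart in neither library. Beside these ratios, nuclei without Slc6a5 were shallower, with a median of 19494 UMIs against 33694.5 in the SNI with brush library and 31305.5 against 35323 in the other, and the part of this in the result was not tested.

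Gabrb1 was lower with Slc6a5 in both libraries, at 437 against 682 CPM (log2 ratio -0.64) and 528 against 916 CPM (-0.79), the first call being lost with size factors (-0.57), without the top nucleus (-0.56) and at most 0.5% mitochondrial UMIs (-0.43). Gabrb2 was lower in one library, 154 against 296 CPM (-0.95, interval -1.23 to -0.65), and higher in the other, 295 against 200 CPM (0.57, interval 0.30 to 0.83), so no direction can be given for it. Gabrg1 also went opposite ways, lower in the SNI with brush library (-1.33) and higher in the other (0.60, interval -0.44 to 1.62, from 17 and 19 UMIs), where the call was lost in 8 of 11 alternatives. Glra3 was lower in the SNI with brush library (-0.75), but 0.45 with at least 10 transmitter UMIs per nucleus and -0.51 without the top nucleus. The call for Slc12a2 in that library (-0.83) was lost without the top nucleus (-0.25), with transmitter UMIs of one kind alone (-0.46) and at most 0.5% mitochondrial UMIs (-0.06). Slc12a2 was also lower in the hot water bath library (-0.64), a call lost in 3 alternatives (-0.58 to -0.53). Slc6a11 was lower in both libraries, at -0.72 (27 and 6 UMIs) in SNI with brush and -2.13 (2 and 18 UMIs) in hot water bath. Its calls held in all alternatives run, but rest on few UMIs. The remaining calls fell in 1 library each. In hot water bath Glra2 was higher (0.80, lost in 1 of 11 alternatives). Nlgn2 (-0.63, lost in 2 of 11) and Gabbr2 (-0.60, lost in 4 of 12) were lower there. In SNI with brush Gabra2 (-0.69, lost in 2 of 12), Gabra4 (-0.82, lost in 1 of 11) and Lhfpl4 (-0.71, lost in 2 of 12) were lower. Of the further genes of the pathway, 28 could be compared in the hot water bath library, 8 higher and 1 lower (18.6% and 12.6% of all genes), among them Kctd16 at 761 against 71.0 CPM (log2 ratio 3.41). In the SNI with brush library 31 could be compared, 3 higher and 4 lower (12% and 16.8%), Insyn2b (1.14) and Slitrk3, an adhesion protein of inhibitory synapses (0.84), among the higher.

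Between the libraries, treatment, animals, pooling and library preparation cannot be told apart, and the ratios compare these 2 libraries. Over all neuronal nuclei, 6 of 23 genes were apart, 4 higher and 2 lower in SNI with brush, where 38.7% of all genes were apart, 30.4% higher and 8.31% lower. The median log2 ratio was 0.01 for the list and 0.23 over all genes. With size factors, which move every ratio by -0.23, 1 was higher and 4 lower, and over all genes 21.8% and 14.2%.

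The lower genes were Gabrb1, at 490 against 987 CPM (2.01-fold lower, log2 ratio -1.01, interval -1.05 to -0.96, -1.24 with size factors), and Gabrq, at 5.45 against 12.9 CPM (-1.23, interval -1.68 to -0.82). The higher ones were Nlgn2, at 55.6 against 28.6 CPM (0.96, and 0.73 with size factors), Gabra5 (0.75), Glra1 (0.61) and Slc12a5 (0.60), of which the last 3 were no longer called with size factors (0.52, 0.38 and 0.36). Gphn was at 1159 against 947 CPM and Gabrg3 at 516 against 647 CPM. Class shares differ between the libraries, and 26 Tph2 nuclei entered one sum and 3 the other.

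Within classes Gabrb1 was lower in both, and Nlgn2 higher in both. In glutamatergic nuclei 5 of 23 were apart, 2 higher and 3 lower (34.2% of all genes, 25.8% and 8.37%, or 19.4% and 13.1% with size factors), and in inhibitory nuclei 7 of 21, 4 higher and 3 lower (39% of all genes, 30.9% and 8.15%, or 21.4% and 14.7%). With size factors 2 were higher and 3 lower in glutamatergic and 3 higher and 5 lower in inhibitory nuclei. Gabrb1 was at 471 against 1036 CPM in glutamatergic nuclei (log2 ratio -1.14, interval -1.20 to -1.07) and at 459 against 782 CPM in inhibitory nuclei (-0.77, interval -0.87 to -0.67). A UMI of it was found in 83 of 94 and 184 of 187 glutamatergic nuclei, with medians of 14.5 and 40 UMIs. Nlgn2 was at 53.2 against 27.2 CPM (0.97) and 56.6 against 27.3 CPM (1.04).

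Other calls were made in 1 class. Gabbr2 was lower in inhibitory nuclei, at 203 against 324 CPM (log2 ratio -0.67, and -0.57 without the Slc18a2 nuclei), as was Gabra2 at 98.9 against 159 CPM (-0.68, and -0.53 with transmitter UMIs of one kind alone). Glra1 was higher there, at 237 against 141 CPM (0.74, and 0.51 with size factors). Gabra4 (1.05, from 46 and 12 UMIs) and Slc6a9 (0.84, from 56 and 17) were also higher. In glutamatergic nuclei Gabra5 was higher, at 63.7 against 37.1 CPM (0.78), a call lost where 90% (0.34) or all (0.43) of the transmitter UMIs had to be of one kind, and Slc6a11 was lower (-1.02). Whether these ratios differ between the classes was not tested, and the inhibitory class itself is made up otherwise, with at least 2 Slc6a5 UMIs in 80 of 103 nuclei in one library and 20 of 57 in the other.

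The ratio between the libraries also went with the length of the gene. Over all genes the median log2 ratio was 0.49 for genes spanning under 20 kb (7857 genes), 0.21 for 20 to 50 kb, 0.06 for 50 to 100 kb, -0.04 for 100 to 200 kb and -0.15 above 200 kb (1065 genes). The listed genes had medians of 0.41 (3 genes), 0.44 (4), 0.32 (5), -0.21 (5) and -0.28 (6) in the same groups. Nlgn2 (0.96) is in the shortest group, and so is Gabrq, which had the lowest ratio of the list (-1.23). Gabrb1, which spans 491 kb, is in the longest, where Gphn, spanning 458 kb, stood at 0.29. Gabra5, in the group of 100 to 200 kb, stood at 0.75. The part of gene length in these ratios was not tested. Of the further genes of the pathway, 11 of 35 were higher and 1 lower over all neuronal nuclei (30.4% and 8.31% of all genes), 10 of 33 higher and 0 lower in glutamatergic nuclei (25.8% and 8.37%), and 10 of 32 higher and 1 lower in inhibitory nuclei (30.9% and 8.15%). Among them were Insyn1 (1.33) and Gabarapl1 (1.40), a relative of the GABA-A receptor-associated protein, over all neuronal nuclei, and Kctd16 in glutamatergic nuclei, at 335 against 131 CPM (log2 ratio 1.36).

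**Figure D5:**
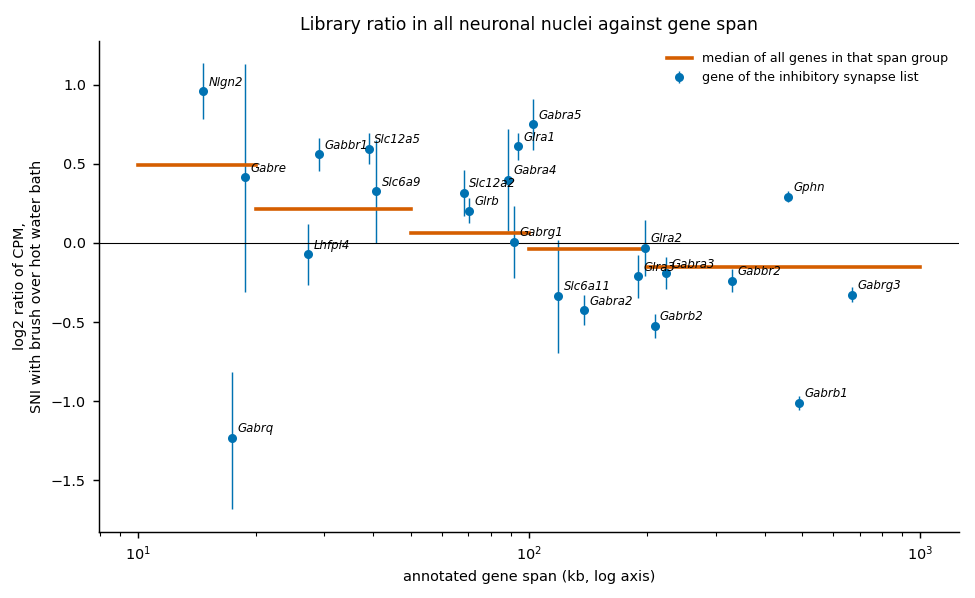
Log2 ratio of CPM, SNI with brush over hot water bath, in all neuronal nuclei against annotated gene span (kb, log axis); points are the 23 genes with exact 95% intervals for counting error, and orange bars are medians of all genes in a span group. The bars descend from 0.49 to -0.15, Gabrb1 (-1.01) and Gabrq (-1.23) lie lowest, and Nlgn2 (0.96) highest.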

How the data were processed

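Counts of UMIs per gene and nucleus were used as the authors deposited them. Per the submitters' processing notes they were made with Cell Ranger 5.0, Seurat and the mm10 genome, and the sources used here state neither the filter on nuclei nor the use of introns or strand. Counts were given for 425 of 723 and 288 of 850 listed barcodes. Gene positions and spans are those of the GENCODE annotation of mm10, and upstream windows those of RefSeq.

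A minimum of 500 genes and a limit of 5% mitochondrial UMIs per nucleus removed 0 nuclei, and Scrublet (scanpy 1.11.5, per library) removed 3 and 2 doublets, 0.706% and 0.694%. UMIs were summed per class and given as CPM. Log2 ratios had 0.5 UMI added to both sums, and where a sum was 0 it was set to 3 counts over the class, giving a bound. Intervals (95%) are exact: Poisson for levels, conditional on the summed count for ratios, Clopper-Pearson for shares. They cover counting error only. Limits given in the text for a share of 0 are instead 3 divided by the number of nuclei. No test was made, since each treatment has 1 pooled library. A self-test ran before the comparisons, on counts simulated from class sums of the real tables with doublets kept. Python 3.11.15, numpy 2.4.6, scipy 1.17.1 and pandas 2.3.3 were used.

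The genes, the lists and the classes were chosen with earlier results of these data known. All 25 listed genes are named. Of the 42 further genes, values were given for at most 4 each way with at least 100 UMIs over both sums, others being counted. Alternatives added after seeing the data left out nuclei with a liver-gene share of at least 0.1%, in place of 0.5%, or inhibitory nuclei with at least 10 Slc18a2 UMIs, and covered the Slc6a5 split in the hot water bath library.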

Additional observations from a re-analysis of the deposited data

How the results depend on the processing

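Of 105 recomputed counts of genes apart, 94 stayed within 1.5 times the value given above and 11 did not. Of 2202 recomputed ratios of single genes, 2056 stayed inside the counting interval of the main ratio and 145 did not. A further 1, which was called, changed sign. Between inhibitory and glutamatergic nuclei of the hot water bath library, 3 genes were apart with a 90% share of one kind of transmitter UMIs 2 with at least 10 such UMIs and 3 without inhibitory nuclei with at least 10 Slc18a2 UMIs, in place of 5. In the SNI with brush library, 5 were apart with UMIs of one kind only and 1 with a floor of 100 UMIs, in place of 3. Between the libraries, 10 were apart over all neuronal nuclei as a mean of the CPM of single nuclei, in place of 6, and in glutamatergic nuclei 8 with UMIs of one kind only, 10 with at least 10 transmitter UMIs and 8 as a mean of CPM, in place of 5. For inhibitory nuclei with against without Slc6a5 in the hot water bath library, 3 were apart with a floor of 100 UMIs, in place of 9. For the same split in the SNI with brush library, 5 were apart without the nucleus with the most UMIs, in place of 11, and the log2 ratio of Glra3 was 0.45 with at least 10 transmitter UMIs, in place of -0.75. The cause was not tested. Of 67 single calls in 9 comparisons, 40 held in all alternatives run, and against glutamatergic nuclei 9 of the 10 calls of Tph2 nuclei did. No alternative was run for the 3 Tph2 nuclei of the SNI with brush library. Thinned to 10000 UMIs, Gabrb2 was found in 15.4% of Tph2, 82.4% of glutamatergic and 68.4% of inhibitory nuclei. Alternatives added after seeing the data were those of the Slc6a5 split in the hot water bath library, leaving out the Slc18a2 nuclei, and a liver-gene share of 0.1%, which gave 6 genes apart between the libraries, as before. No paired analysis was possible because each treatment has 1 library and the labels give no replicate numbers. Sums of under 30 UMIs limit what can be said of Gabra4, Gabre, Gabrq, Slc6a11 and Slc6a9 in inhibitory and Tph2 nuclei of the hot water bath library. The same holds for Gabrb2 (24 UMIs), Glra3 (18) and Gabrg1 (28) in Tph2 nuclei of that library.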
